A study of Mus musculus with 18 samples.

Results

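The miR-15/16 family was examined in the livers of male Muta™Mouse given benzo(a)pyrene (BaP). Its members were taken by name, as every non-control spot annotated to mmu-miR-15a, mmu-miR-15b, mmu-miR-16, mmu-miR-195, mmu-miR-322 or mmu-miR-497 (the prefix, for mouse, is left out below), and these were 6 of the 576 miRNA names on the array. BaP is a polycyclic aromatic hydrocarbon that liver enzymes convert to metabolites that bind DNA. The mice, of the transgenic strain 40.6, all carried a lacZ transgene from bacteria in which mutations can be counted, the controls included. They were 25 weeks old and received olive oil alone or BaP in olive oil at 25, 50 or 75 mg/kg/day by gavage for 28 days, and liver was taken 3 days after the last dose. Each group had 5 animals, of which 5 at each dose but 3 controls were analysed here. Each of these livers gave 1 array. P-values therefore measure the spread between animals of 1 sex, age and strain together with that of labelling and hybridisation. These parts cannot be told apart.

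MicroRNAs of this family pair with messenger RNAs mainly through their seed, the bases near the 5′ end. Their best known targets are drivers of the cell cycle, among them cyclin D1, cyclin E1 and CDK6, together with the checkpoint kinases CHK1 and WEE1 and the survival protein BCL2. The family is known for restraining entry into S phase, and miR-195 is often reported to be low in hepatocellular carcinoma. Most are made in pairs from shared transcripts, so that neighbours can be processed from the same precursor RNA.

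The mature sequences of the 6 members from RefSeq (GRCm38.p6) are shown because the seed, in capitals (bases 2 to 8 from the 5′ end), is what makes them a family.
mmu-miR-15a: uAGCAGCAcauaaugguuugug
mmu-miR-15b: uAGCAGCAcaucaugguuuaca
mmu-miR-16: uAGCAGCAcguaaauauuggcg
mmu-miR-195: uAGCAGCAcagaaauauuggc
mmu-miR-497: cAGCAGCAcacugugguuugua
mmu-miR-322: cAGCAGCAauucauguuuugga

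All 6 carried the same seed, and 10 of 1679 mature mouse names in the RefSeq table did. The other 4 (miR-195b, miR-6342, miR-6353 and miR-6419) are names that the array does not use. The array's miR-195 and miR-497 were matched to RefSeq's miR-195a-5p and miR-497a-5p. Beyond the seed the members differed. miR-16 and miR-195 were the closest pair, identical at 19 of 21 bases compared from the 5′ end, followed by miR-15a and miR-15b at 18 of 22. miR-195 and miR-497 matched at 12 of 21 bases, and miR-16 and miR-497 at 11 of 22. The probe sequences were not used here, so cross-hybridisation between members was not tested.

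The members lie at 4 loci. On chromosome 14, within the span of the long non-coding RNA gene Dleu2, miR-15a (chr14:61632075-61632096, minus strand) and one copy of miR-16 (chr14:61631936-61631957, minus strand) are 117 bases apart. On chromosome 3, within the span of Smc4, which encodes a condensin subunit, miR-15b (chr3:69009775-69009796, plus strand) and the other copy of miR-16 (chr3:69009918-69009939, plus strand) are 121 bases apart. Both copies give the same mature miR-16, so the array cannot tell their products apart. On chromosome 11, miR-497 (chr11:70234730-70234751, plus strand) and miR-195 (chr11:70235062-70235082, plus strand) are 310 bases apart and overlap no other annotated gene. miR-322, the mouse counterpart of human miR-424, lies on the X chromosome (chrX:53054306-53054327, minus strand) within the span of the non-coding gene C430049B03Rik.

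Across the 18 arrays the median signal of non-control spots lay between 39.5 and 69, and between 5.72% and 16.5% of spots were well above background. The arrays came from 3 slides. The first held 7 arrays (1 control and 2 from every dose group). The second held 4, with no control among them (2 from 50 and 2 from 75 mg/kg/day). The third held 7 (2 controls and, in rising order of dose, 3, 1 and 1 dosed livers). The liver markers miR-122, miR-192 and miR-194 were above background on all 18 arrays and none of the 3 passed the test at any dose. Of 7 blood cell markers, miR-451, miR-144 and miR-223 were tested and none passed, while miR-150, miR-486 and miR-142-5p were above background on no array. Of 5 mesenchymal markers only miR-199a-3p was tested, and miR-143, miR-145 and miR-214 were above background on no array.

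Each member had 2 probes of 10 spots, and all 6 members were among the 69 names tested, on 9 of their 12 probes. A probe was tested when it was present in at least 1 dose group, which means well above background in at least 50% of its spots on 4 of 5 arrays, or on 3 of 3 controls. No member spot was saturated. Both probes of miR-15a were present on all 18 arrays, with raw signals between 205.75 and 932.5. The probes of miR-15b were present on 17 and 18 arrays, with raw signals of 72.5 to 135.75 and 85.75 to 274. Those of miR-497 were present on 11 and 17. miR-16 and miR-195 were each tested on 1 probe, present on 16 arrays, and their other probe was present on 2. The tested probe of miR-322 was present on 3 of 3 controls but on 3, 2 and 2 of the 5 arrays at 25, 50 and 75 mg/kg/day, with raw signals between 51 and 99.5. miR-322 therefore passed the filter only through the controls, and its level in dosed livers was at the edge of detection. Signal was not background-subtracted, so log2 changes of these dim probes understate the change of the RNA.

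Slide was the largest source of spread for 4 of the 6 members. It accounted for 92.1% of the variance of miR-15a over the 18 arrays, for 89.5% of that of miR-15b, for 86.6% of that of miR-497 and for 83.3% of that of miR-195. For miR-322 and miR-16 the shares were 43.2% and 37.0%. Every array of slide 1 read lower than every array of slides 2 and 3 for miR-15a, miR-15b, miR-195 and miR-497, whatever the dose. Changes are therefore given from a linear model with slide as a block (limma, with P-values adjusted by Benjamini-Hochberg over the 69 names), in log2 units with their standard error.

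**Figure D1:**
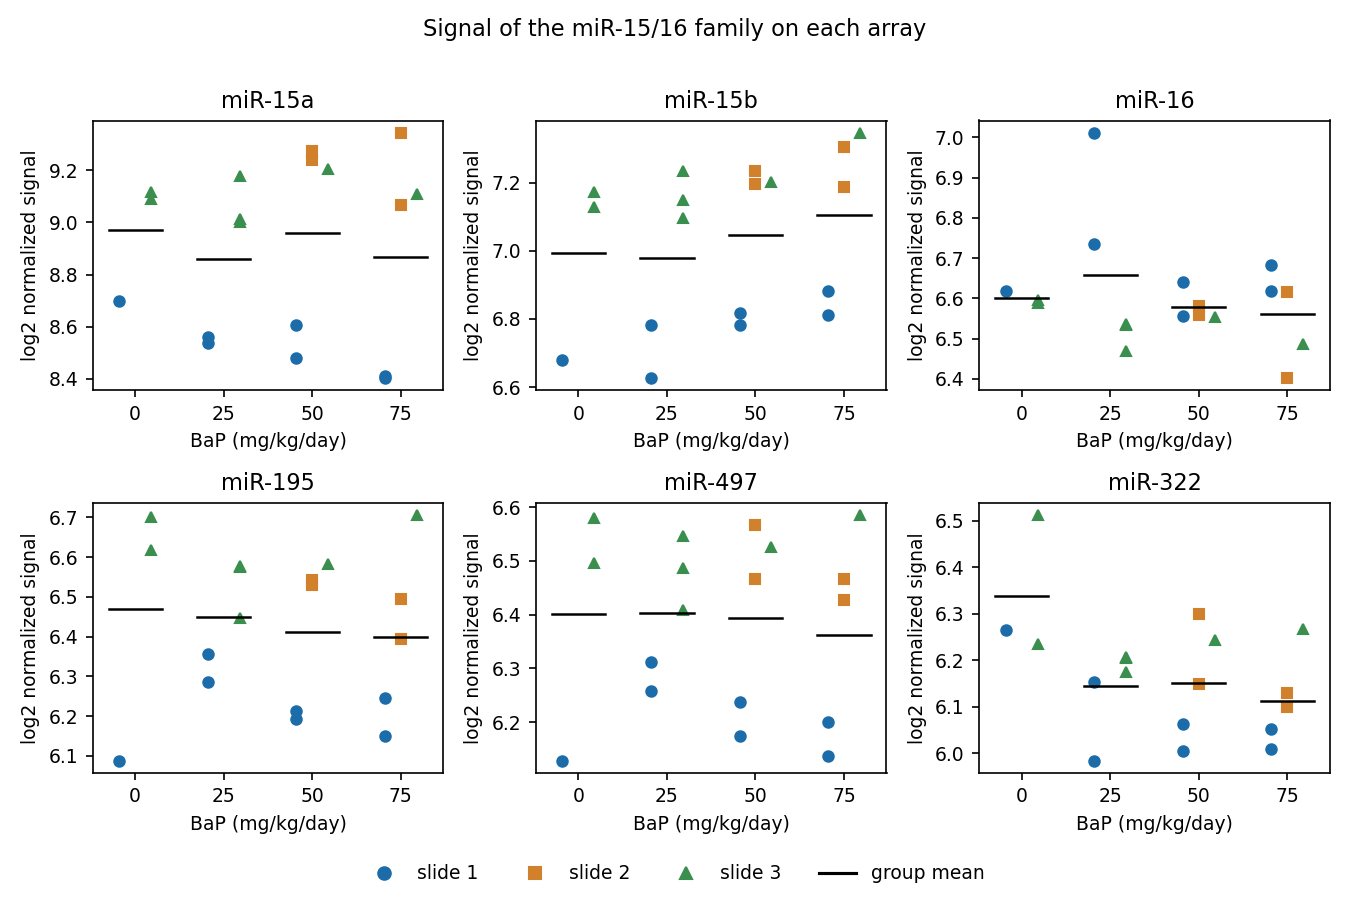
Normalized log2 signal of each family member (y axis) on each of the 18 arrays against the BaP dose in mg/kg/day (x axis, 0 for vehicle). Each point is 1 liver, its colour and shape give the slide, and bars are group means of 3 controls or 5 dosed livers; slide 1 sits below the other slides for miR-15a, miR-15b, miR-195 and miR-497.

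miR-15b was the only member that passed the test, and it did so only in the trend over dose. Its mean, with the slide effect removed, was 6.98 in controls and 6.99, 7.08 and 7.14 at the 3 doses. On slide 1 the control read 6.68 (normalized log2 signal), the arrays at 25 mg/kg/day 6.63 and 6.78, those at 50 mg/kg/day 6.82 and 6.78, and those at 75 mg/kg/day 6.88 and 6.81. On slide 3 the controls read 7.13 and 7.17, the arrays at 25 mg/kg/day 7.23, 7.10 and 7.15, and the single arrays at 50 and 75 mg/kg/day 7.20 and 7.35. Slide 2, with no control, gave 7.20 and 7.24 at 50 and 7.30 and 7.19 at 75 mg/kg/day. Among arrays that shared a slide with a control, 3 of 3 from the 50 and 3 of 3 from the 75 mg/kg/day group lay above every control there, whereas those from the 25 mg/kg/day group fell on both sides. The same held upward for 11.6% of the 69 names at 50 mg/kg/day, for 17.4% at 75 mg/kg/day and for 8.7% at both. At 75 mg/kg/day these names include miR-195 and miR-497. Without regard to slide, the dose groups overlapped the controls.

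The slope of miR-15b was 0.059 ± 0.015 (SE) per 25 mg/kg/day, with an adjusted P of 0.0166 in limma. In the same test 7 of 69 miRNAs passed (10.1%), 2 of them upward (2.9%), and miR-15b was 1 of 6 family members. Against control, miR-15b differed by 0.014 ± 0.045 at 25 mg/kg/day (95% interval -0.081 to 0.11, adjusted P = 0.851), by 0.10 ± 0.05 at 50 mg/kg/day (adjusted P = 0.281) and by 0.16 ± 0.05 at 75 mg/kg/day (95% interval 0.059 to 0.27, adjusted P = 0.0610). The last value is 1.12-fold and missed the threshold of 0.05. Its size depended on the signal and scaling used. It was 0.42 with the processed signal (adjusted P = 0.0411 in limma), 0.55 with the total gene signal (adjusted P = 0.000163) and -0.085 with array medians centred. Its 2 probes gave 0.12 and 0.21 at 75 mg/kg/day. Between doses, miR-15b was 0.15 ± 0.04 higher at 75 than at 25 mg/kg/day (adjusted P = 0.0778). Since these are whole livers, more cells of a type and more RNA per cell cannot be told apart.

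The trend of miR-15b passed the test in 9 of 14 other processing settings. It did not pass with quantile normalization (0.041), with the authors' values (0.032), with array medians centred (-0.0023), without the slide term (0.045) or with slide as a random block (0.059), nor without replicate 1 or replicate 5 at 75 mg/kg/day (0.054 and 0.050).

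**Figure D2:**
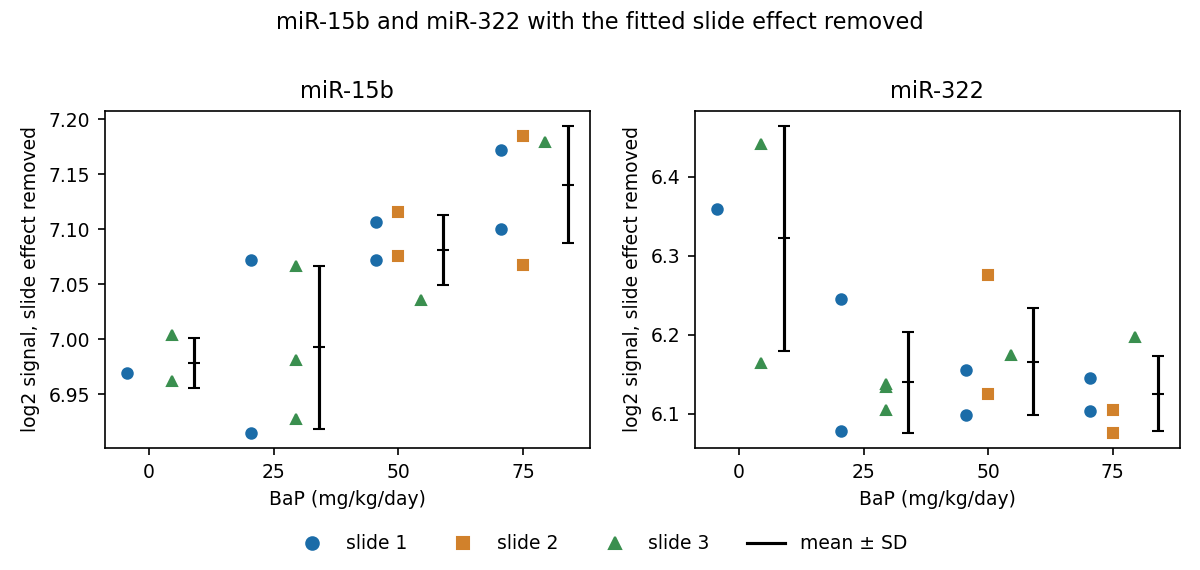
Log2 signal of miR-15b (left) and miR-322 (right) after the fitted slide effect was removed (y axis), against BaP dose (x axis). Points are livers, coloured by slide, and the bar beside each group is the mean ± SD; miR-15b goes from a mean of 6.98 in controls to 7.14 at 75 mg/kg/day, and miR-322 from 6.32 to 6.13.

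miR-322 read lower in dosed livers, without a step from dose to dose. Its tested probe entered only because it was present in the controls, so its values are a description and carry no test. On slide 1 its control read 6.27, the arrays at 25 mg/kg/day 6.15 and 5.98, those at 50 mg/kg/day 6.06 and 6.00, and those at 75 mg/kg/day 6.01 and 6.05. On slide 3 the controls stood apart from each other at 6.51 and 6.23, the arrays at 25 mg/kg/day read 6.20, 6.17 and 6.21, and those at 50 and 75 mg/kg/day 6.24 and 6.27. Slide 2 gave 6.30 and 6.15 at 50 and 6.10 and 6.13 at 75 mg/kg/day. All 5 arrays at 25 mg/kg/day lay below all 3 controls, as did 3 of the 5 from the 50 and 4 of the 5 from the 75 mg/kg/day group. The same lack of overlap, downward at 25 mg/kg/day, was seen for 4.35% of the 69 names.

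The fitted differences of miR-322 from control were -0.18 ± 0.06, -0.16 ± 0.07 and -0.20 ± 0.07 at 25, 50 and 75 mg/kg/day, and the slope was -0.052 ± 0.023 per 25 mg/kg/day. Its other probe, which did not pass the filter, gave -0.12, -0.14 and -0.14 at the 3 doses. A fit without the filter, over all 576 names and with both probes averaged, does not choose miR-322 by its controls. There it differed by -0.15 ± 0.05 at 25 mg/kg/day (adjusted P = 0.383 in limma), by -0.15 ± 0.06 at 50 mg/kg/day (adjusted P = 0.297) and by -0.17 ± 0.06 at 75 mg/kg/day (adjusted P = 0.214), and none passed.

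The size of the difference moved with the controls. Without control replicate 3, the array at 6.23, the values with the filter were -0.26, -0.23 and -0.27, and without control replicate 2, the array at 6.51, they were -0.12, -0.10 and -0.14. With array medians centred the median of all 69 names lay 0.25 below control at 75 mg/kg/day, and miR-322 then differed from that median by 0.012.

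**Figure D3:**
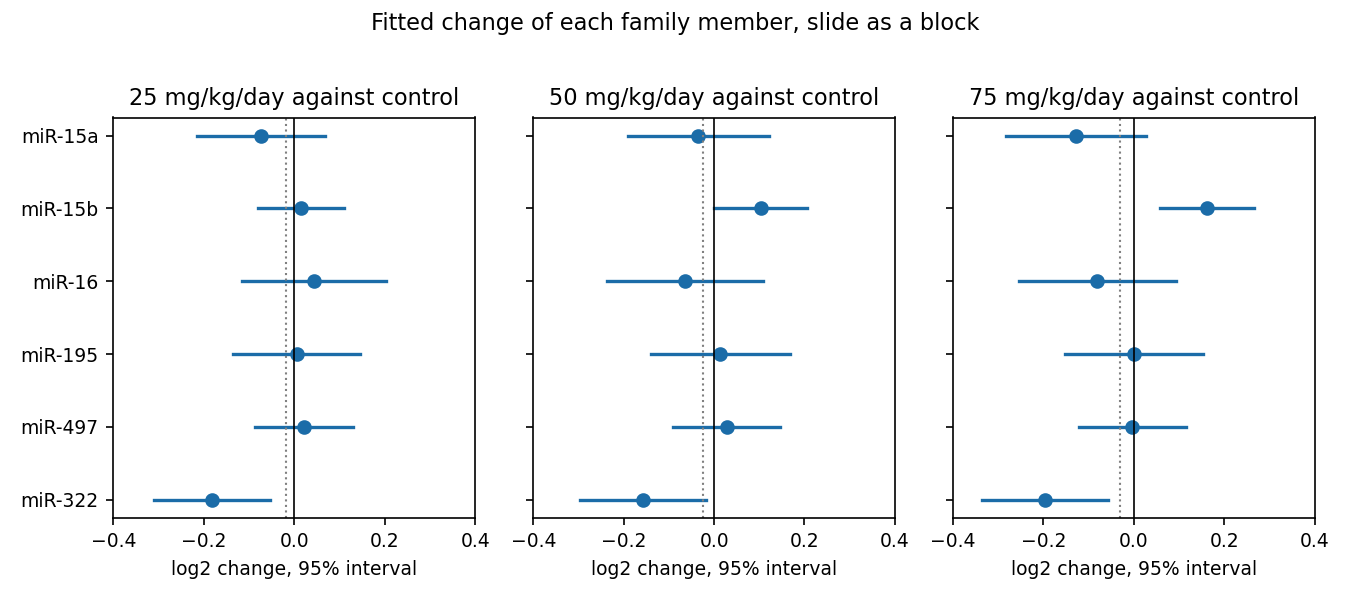
Fitted log2 change of each family member against control (x axis) at 25, 50 and 75 mg/kg/day, with slide as a block. Points are estimates, lines are 95% intervals, the solid line marks no change and the dotted line the median over the 69 names; at 75 mg/kg/day the interval of miR-15b lies above 0 and that of miR-322, whose probe passed the filter through the controls, below it, while the other 4 include 0.

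The other 4 members had intervals that include 0 at every dose, and none passed the test. miR-15a, from the Dleu2 locus, ranged from 8.70 to 9.12 in controls and from 8.40 to 9.34 at 75 mg/kg/day, and the groups overlapped. Its fitted change at 75 mg/kg/day was -0.13 ± 0.07 (95% interval -0.28 to 0.028, adjusted P = 0.289 in limma). On slide 1 the arrays at 75 mg/kg/day read 8.40 and 8.41 against 8.70 in the control, and on slide 3 the array at 75 mg/kg/day read 9.11, between the controls at 9.12 and 9.09.

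miR-16, the product of both the Dleu2 and the Smc4 loci, read 6.62, 6.59 and 6.60 in the controls. At 25 mg/kg/day it read 7.01 and 6.73 on slide 1 but 6.47, 6.54 and 6.53 on slide 3, so that dosed arrays lay above the controls on one slide and below them on the other. At 75 mg/kg/day it ranged from 6.40 to 6.68, and the fitted change was -0.081 ± 0.081 (95% interval -0.25 to 0.093). The chromosome 11 pair showed the smallest fitted differences at 75 mg/kg/day. Within slides that held a control, 3 of 3 arrays at that dose lay above every control there for both members. This was also so for miR-15b, and for 17.4% of the 69 names. The mean differences on slides 1 and 3 were 0.11 and 0.046 for miR-195, and 0.040 and 0.047 for miR-497. miR-195 ranged from 6.09 to 6.70 in controls and from 6.15 to 6.71 at 75 mg/kg/day, a fitted change of 0.00026 ± 0.072 (95% interval -0.15 to 0.15). miR-497 ranged from 6.13 to 6.58 in controls and from 6.14 to 6.58 at 75 mg/kg/day, a fitted change of -0.0032 ± 0.056 (95% interval -0.12 to 0.12). At 25 and 50 mg/kg/day the fitted changes of these 4 members lay between -0.074 and 0.044, and the outermost bounds of their 95% intervals were -0.24 and 0.20. Other settings moved these values further, down to -0.59 for miR-15a with array medians centred and -0.56 for miR-16 with the total gene signal, both at 25 mg/kg/day, and up to 0.19 for miR-195 with the processed signal at the same dose. None of the 4 passed at 25 or 50 mg/kg/day in any setting. The intervals do not show that these members were unaffected. At 75 mg/kg/day those of miR-15a and miR-16 leave room for a fall as large as the 0.16 rise of miR-15b. Those of miR-195 and miR-497 at that dose do not reach 0.16 in either direction, but only in the reported fit. Other settings went beyond it, with -0.17 for miR-195 with the authors' values and 0.18 for miR-497 with the total gene signal. Because these dim probes were not background-subtracted, the intervals bound the change of the signal and not that of the RNA.

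Counted together, 0 of 6 members passed against control at 25, 50 or 75 mg/kg/day, where 0%, 2.9% and 5.8% of the 69 names did. An unadjusted P under 0.05 was found for 7, 11 and 18 of the 69 names (10.1%, 15.9% and 26.1%). With miR-322 left aside for its entry through the controls, the only such member was miR-15b, at 75 mg/kg/day. Between doses no member passed, and 1.45%, 1.45% and 2.9% of names did for 50 against 25, 75 against 50 and 75 against 25 mg/kg/day.

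The pairs of neighbours were then compared across arrays. After each miRNA's mean on a slide was removed, the deviations of miR-195 and miR-497 went together over the 18 arrays, with Pearson's r = 0.87 and Spearman's rho = 0.81. Each was the closest of 68 other miRNAs to the other. Both are dim, and their deviations had the same sign on 11 of the 18 arrays, beside 13 for miR-15a and miR-16. The correlation was 0.91 over the 7 arrays of slide 1 and 0.92 over the 7 of slide 3, and 0.79 without the 2 arrays farthest from the median of miR-195. Over 9 other processing settings r lay between 0.69 with the authors' values, where miR-497 ranked 10 for miR-195 and miR-195 ranked 17 for miR-497, and 0.99 with array medians centred. The next closest to both were miR-652 (r = 0.65 with miR-195 and 0.72 with miR-497) and miR-106b (0.61 and 0.65). The arrays share labelling and hybridisation as well as dose, so these values describe likeness and carry no test.

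The likeness of the other neighbours varied with the processing. miR-15a and miR-16 had r = 0.15 as reported, but 0.011 with the total gene signal, 0.43 with quantile normalization, 0.43 with the processed signal, 0.50 with the authors' values and 0.91 with array medians centred. For the other pair on a shared locus, miR-15b and miR-16 had r = -0.45, which came to -0.097 without the 2 arrays farthest from the median of miR-15b and was positive with quantile normalization (0.39), the processed signal (0.45), the total gene signal (0.19), the authors' values (0.43) and array medians centred (0.89). At 75 mg/kg/day the fitted change of miR-15b exceeded that of miR-16 by 0.24 and that of miR-15a by 0.29. miR-16 and miR-195, the most alike in sequence, had r = 0.41. The miRNAs closest to miR-16 were instead miR-26a (r = 0.89), miR-194 (0.76) and miR-103 (0.74), and those closest to miR-15a were miR-151-5p (0.80), let-7i (0.70) and miR-100 (0.64).

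**Figure D4:**
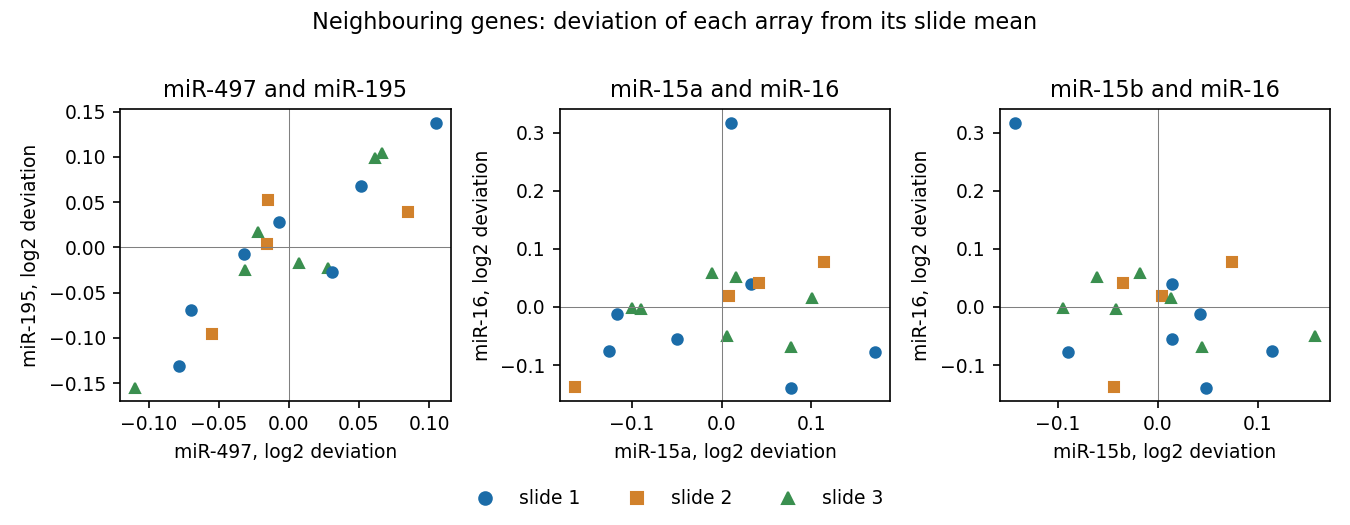
Deviation of each array from its slide mean, in log2 units, for the neighbouring pairs miR-497 and miR-195, miR-15a and miR-16, and miR-15b and miR-16 (x and y axes). Each point is 1 of 18 livers, coloured by slide; the first pair follows a line (r = 0.87), the others do not (r = 0.15 and -0.45), and 1 array at 25 mg/kg/day with high miR-16 stands apart in both.

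The miRNAs most like miR-15b were miR-27a (r = 0.72), miR-34a (0.69) and miR-24 (0.51). miR-34a, which is transcribed under p53 and also acts on the cell cycle, was 2.07 ± 0.18 higher at 75 mg/kg/day than in controls (adjusted P = 5.4e-07 in limma), so its likeness to miR-15b includes the dose. For miR-322 the closest were miR-100 (r = 0.64), miR-25 (0.63) and miR-7a (0.63).

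Relatives and partners of the family were also looked up. miR-103 and miR-107, whose seed is shifted by 1 base from that of the family, did not pass at any dose or in the trend (-0.026 ± 0.062 and 0.013 ± 0.056 at 75 mg/kg/day). Of 15 passenger strands and cluster partners of the members, 13 were on the array and none was above background on any array. These include miR-503, miR-351, miR-542 and miR-450, all made from the same X-chromosome cluster as miR-322, so the lower signal of miR-322 has no second miRNA of its cluster to be set against.

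Of 30 other miRNAs listed for roles in the cell cycle, 19 were tested. At 75 mg/kg/day miR-34a passed upward and let-7c, a member of the let-7 family that restrains proliferation, passed downward (-0.27 ± 0.05, adjusted P = 0.00533 in limma). In the trend miR-34a, let-7c and miR-26b passed (-0.092 ± 0.017 for let-7c and -0.10 ± 0.03 for miR-26b per 25 mg/kg/day, adjusted P = 0.00135 and 0.0466). The median change of the 19 at 75 mg/kg/day was -0.059, beside -0.030 over all names. The slope of miR-34a was 0.71 per 25 mg/kg/day, against 0.059 for miR-15b.

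The mesenchymal marker miR-199a-3p moved with dose as well. It ranged from 6.57 to 6.66 in controls and from 6.28 to 6.50 at 75 mg/kg/day (fitted change -0.22 ± 0.05, adjusted P = 0.00931 in limma), and it is 1 of 5 such markers, the others being at or near background. Whether a shift in cell types had a part in the changes of miR-322 or miR-15b was not tested.

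**Figure D5:**
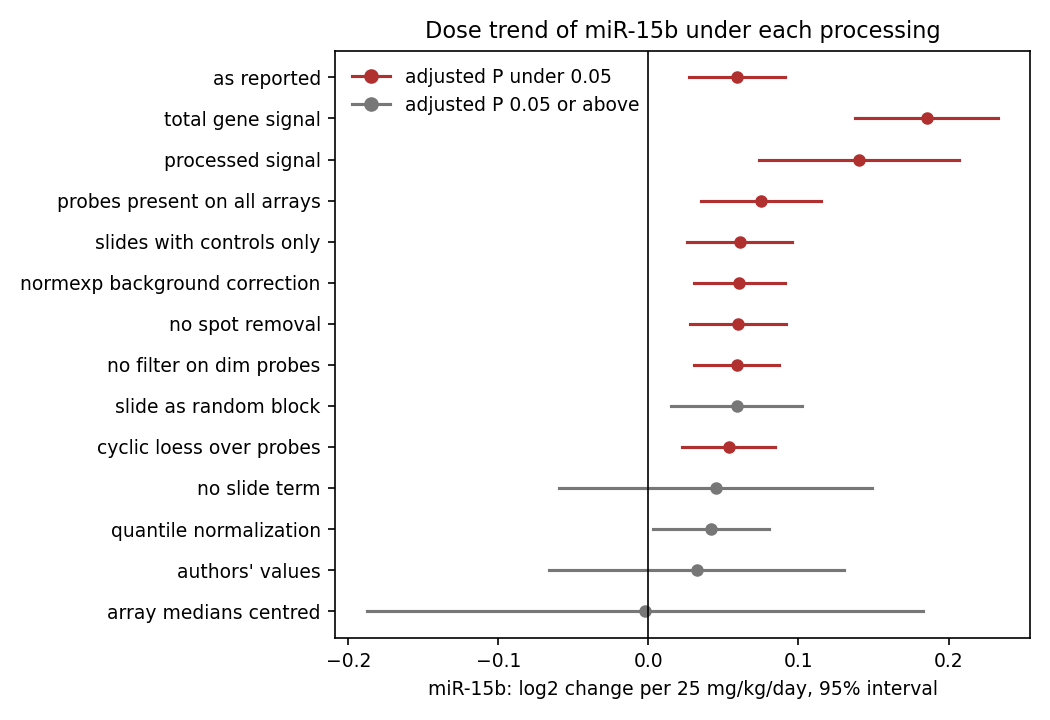
Slope of miR-15b in log2 units per 25 mg/kg/day with its 95% interval (x axis) as reported and under 13 other settings (y axis). Red marks an adjusted P under 0.05 and grey one at or above it; all slopes except that with array medians centred (-0.0023) are above 0.

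Relative to the median of all names, the slope of miR-15b was above 0 in all 15 settings compared, between 0.046 with quantile normalization and 0.12 with the total gene signal. These are not separate checks. All use the same livers, and the setting that shuffled residuals changed only the P-value, so it repeats the reported slope. With array medians centred the median slope of all names was -0.064. miR-322 lay below the median of all names at 75 mg/kg/day in all 14 settings that hold it except array medians centred. With the total gene signal, which adds background-subtracted signal over a miRNA's probes, it did so by 1.56. There, values under a floor of 3.23 were raised to it, so the size for a miRNA as dim as miR-322 can depend on that floor. Its probe entered most settings through the controls, so their number supports nothing.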

How the data were processed

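RNA from 18 livers was labelled with cyanine 3 and hybridised to 1-colour Agilent mouse miRNA arrays. Per the file headers, the deposited scanner files hold spot intensity extracted with Feature Extraction 10.7.3.1, not normalized. The authors also deposited 1 log2 value per miRNA and array, of unknown centring (column medians 5.74 to 5.76), used as an alternative.

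After the study's methods, median signal without background subtraction was log2 transformed and normalized by cyclic loess over spots. Flagged outlier spots were removed, the median over spots and the mean over present probes were taken (112 probes, 69 names). Linear models were fitted to all arrays with limma 3.58.1 (lmFit, eBayes) in R 4.3.3, with slide as a fixed block, in place of the study's MAANOVA, and the code was tested on simulated data. Trends are slopes per 25 mg/kg/day. Alternatives changed the signal column, background correction, normalization, filters, slide term or arrays. Values of the processed and the total gene signal under a floor (12.8 and 3.23) were raised to it. Replicate numbers only name arrays. The number of arrays limits precision. Named miRNAs were the members, the 3 non-members most like each, and listed miRNAs past the threshold. Members and lists were chosen with earlier results of these data known. Sequences came from RefSeq by name.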

Additional observations from a re-analysis of the deposited data

Results flagged for a closer look

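One of 18 groups of 5 arrays checked for a distant value was marked, for miR-322 at 25 mg/kg/day. Replicate 2, on slide 1, read 5.98 against 6.15 to 6.21 on the other 4 arrays, and its gap to the nearest was 0.752 of the range of the group, above the critical value of Dixon's test for 5 samples. The array at 6.15 was on slide 1 as well. Chance marks about 1 in 20 groups whose values come from a single population. These values were not adjusted for slide and each group pooled arrays of different slides, so that rate is only a rough guide.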

How the results depend on the processing

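No paired analysis was possible because numbers were given to arrays in accession order and the labels link no animals across groups. The number of members past the threshold was 0 in each comparison except the trend, where it was 1. At 75 mg/kg/day against control it became 1 with normexp background correction, with the processed signal, with the total gene signal and with probes present on all arrays, and with the total gene signal it was also 1 at 50 mg/kg/day against control and for 75 against 25 mg/kg/day. For the trend it became 0 with the authors' values, quantile normalization, array medians centred, no slide term and slide as a random block. All of these were miR-15b. Leaving out each array in turn gave between 0 and 1 members for the contrasts of each dose with control, for 75 against 25 mg/kg/day and for the trend, through miR-15b or miR-322. Calls of miR-322, whose probe passed the filter only through the controls, support nothing. The cause of these changes was not tested.

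Values with intervals around 0 changed sign in places. With array medians centred miR-15b differed from control by -0.26, -0.15 and -0.085 at 25, 50 and 75 mg/kg/day, with a slope of -0.0023, while the median of all names fell by 0.23, 0.25 and 0.25. At 25 mg/kg/day miR-15b was -0.072 with the authors' values and -0.016 without a slide term and in the exact permutation test ignoring slide, and leaving out each array in turn gave -0.0074 to 0.035. At 75 mg/kg/day miR-195 was -0.050 with the total gene signal, -0.17 with the authors' values, -0.050 with quantile normalization, -0.14 with array medians centred, -0.048 with cyclic loess over probes, -0.0021 without spot removal, -0.027 without the filter on dim probes, -0.071 without a slide term and in the exact test ignoring slide, and -0.0055 with slide as a random block; leaving out each array gave -0.095 to 0.049. At the same dose miR-497 was 0.12 with the processed signal, 0.18 with the total gene signal, 0.0097 on the slides that hold a control (chosen after seeing the data) and 0.043 in the exact test within slides, and -0.053 to 0.032 with each array left out. miR-15a was 0.10 with the total gene signal and 0.030 with quantile normalization. For 75 against 25 mg/kg/day miR-322 was 0.021 with the processed signal, 0.0084 on the slides that hold a control and 0.0092 in the exact test within slides, and -0.054 to 0.024 with each array left out.

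miR-322 stayed below control at all 3 doses in all 13 alternatives and all 18 fits without 1 array. Most of these fits reuse the probe that entered through the controls, and they share the same livers. The constant sign is therefore a description and supports nothing. At 75 mg/kg/day miR-15b passed with replicate 1 or 2 of the lowest dose, or replicate 4 of the highest, left out. Dim signal limits miR-16, miR-195, miR-322 and miR-497, whose raw values lie close to the array medians. The same limit bears on miR-15b. Its dimmer probe read between 72.5 and 135.75, beside 71.5 to 137.25 for the tested probe of miR-16.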
